A study of Mus musculus with 13 samples.

Results

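The 32 genes described here build cholesterol, sense it, move it inside the cell and export it, and their histone acetylation was followed in 13 libraries of mouse bone marrow-derived macrophages. They comprise 18 enzymes of cholesterol synthesis, 5 genes that control the SREBP transcription factors, 4 genes of sterol transport and storage, and 5 genes of the LXR receptors, efflux and lipoprotein receptor turnover. Each gene was given the reads of every H3K27ac island that touched its mm10 span or the 1 kb on either side, as were all 21883 protein-coding genes. An island is a stretch of the genome in which reads from the antibody outnumber those of the control, and acetylation of lysine 27 on histone H3 marks active promoters and enhancers. Islands were called for 31 of the 32 genes in all 13 libraries, and for 11504 of the 21883 genes. The exception was Hsd17b7, for which no island was called in the IFNγ 4 h library.

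Every library came from C57BL/6 macrophages, grown from bone marrow in L929-conditioned medium and taken on the seventh day of differentiation. The cytokine experiment comprised 7 libraries: untreated cells, and cells given either IL-4 at 10 ng/ml, IFNγ at 100 ng/ml or the 2 cytokines combined, each for 2 h and for 4 h. The knockdown experiment comprised 6 libraries: cells with a scramble shRNA, with shJunB or with shCEBPb, each untreated or given IFNγ for 4 h. For the cytokine libraries no shRNA is mentioned in the labels. There was 1 library per condition, so a single comparison has no replicate check, and the intervals given with folds are 95% exact binomial intervals that cover counting error only. The labels do not say how many mice were used, so the p-values below measure only the spread between these libraries. A level is an average over the cells of a library, so fewer acetylated cells and less acetylation per cell cannot be told apart.

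Macrophages make cholesterol from acetyl-CoA through mevalonate, squalene and lanosterol, and they take up more of it with lipoproteins and cell debris. When sterol in the endoplasmic reticulum is low, SCAP escorts the SREBP precursors to the Golgi, where they are cut and released to switch on the synthesis genes. The INSIG proteins hold SCAP back when sterol is plentiful. Oxysterols activate the LXR receptors, which raise the exporters ABCA1 and ABCG1.

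The deposited fold column fixes the library totals up to a whole multiple, and the smallest totals that fit it ran from 14.3 M reads in the scramble IFNγ library to 37.4 M in the library given both cytokines for 4 h. On these totals, reads in islands made up 77.1% to 80.0% of the total in the cytokine experiment and 65.1% to 73.0% in the knockdown experiment. Called length was 176 to 206 Mb in the first and 218 to 244 Mb in the second. All 10 macrophage markers and all 12 housekeeping genes examined carried islands in all 13 libraries. The fibroblast markers Col1a2, Col3a1, Pdgfra and Dcn were called in none, as were Cd3g, Cd8a, Pax5, Mpo, S100a9, Ly6g, Mcpt4 and Tpsb2. The fibroblast marker Col1a1 was called in 1 library, at 51.8 reads. Islands were called in all 13 libraries at 3 of 6 T cell and 2 of 4 B cell markers, and at 0 of 5 neutrophil and 0 of 4 mast cell markers. Some markers moved with the treatments. The mast cell marker Ms4a2 was called only in the 4 libraries with IL-4, at 5714 and 4976 reads with IL-4 and 3007 and 1797 with both at 2 h and 4 h. Cd4 stood at 7467 reads in the untreated cytokine library and between 170 and 578 in the 6 treated ones, and Lyz2 at 7498 and between 149 and 1298. In the same libraries the macrophage marker Cd14 stood at 12827 and between 798 and 2027, and the B cell marker Ms4a1 at 6669 and between 385 and 2059. Elane was called in 11 libraries. The part of these markers in the results below was not tested. The summed level of the macrophage markers ran from 43268 normalised reads in the scramble IFNγ library to 71226 in the untreated cytokine library. All 7 interferon reference genes rose with IFNγ over the 4 backgrounds in edgeR's test (median log2 change 1.94). Acetylation at Junb and Cebpb does not check the knockdowns, which act on RNA.

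Of the 32 genes, 26 had a listed start in the RefSeq promoter table of GRCm38.p6. The promoter of Hmgcs1, the synthase that joins acetyl units on the way to mevalonate, is shown because the summed islands of Hmgcs1 passed the test of IFNγ over the 4 backgrounds, which its start island alone did not, and because its 250 bases before the start held the sterol regulatory element TCACNCCAC, searched on both strands. They lie at chr13:119690101-119690350, plus strand, and the capitals mark that element, which spans bases 137 to 129 before the start.
Hmgcs1: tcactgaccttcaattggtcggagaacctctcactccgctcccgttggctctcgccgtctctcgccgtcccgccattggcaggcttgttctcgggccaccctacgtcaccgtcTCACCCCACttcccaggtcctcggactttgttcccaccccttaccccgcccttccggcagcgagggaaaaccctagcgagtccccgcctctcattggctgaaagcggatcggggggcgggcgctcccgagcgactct
The promoters of Idi1, Cyp51, Nsdhl and Sc5d are shown because acetylation at these synthesis genes lay above the untreated library at 2 h and below it at 4 h in each cytokine treatment. They were chosen after their values were seen. Capitals mark CCAAT, the motif of NF-Y, on either strand. The windows lie at chr13:8885356-8885605 (plus strand) for Idi1, chr5:4104698-4104947 (minus strand) for Cyp51, chrX:72918271-72918520 (plus strand) for Nsdhl and chr9:42264301-42264550 (minus strand) for Sc5d.
Idi1: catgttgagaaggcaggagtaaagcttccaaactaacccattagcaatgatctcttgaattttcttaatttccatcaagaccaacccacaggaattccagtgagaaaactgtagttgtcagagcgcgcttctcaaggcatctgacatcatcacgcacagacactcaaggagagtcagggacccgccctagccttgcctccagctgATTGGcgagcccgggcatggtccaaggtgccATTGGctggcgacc
Cyp51: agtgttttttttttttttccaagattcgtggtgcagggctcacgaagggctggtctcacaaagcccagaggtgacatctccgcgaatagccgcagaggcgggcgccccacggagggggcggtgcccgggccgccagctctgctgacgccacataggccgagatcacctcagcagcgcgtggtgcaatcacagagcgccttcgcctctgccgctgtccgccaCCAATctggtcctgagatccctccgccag
Nsdhl: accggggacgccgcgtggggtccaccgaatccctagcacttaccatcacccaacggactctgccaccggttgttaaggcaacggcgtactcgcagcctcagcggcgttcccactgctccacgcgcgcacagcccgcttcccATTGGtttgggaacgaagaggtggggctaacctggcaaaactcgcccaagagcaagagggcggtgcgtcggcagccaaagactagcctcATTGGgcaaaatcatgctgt
Sc5d: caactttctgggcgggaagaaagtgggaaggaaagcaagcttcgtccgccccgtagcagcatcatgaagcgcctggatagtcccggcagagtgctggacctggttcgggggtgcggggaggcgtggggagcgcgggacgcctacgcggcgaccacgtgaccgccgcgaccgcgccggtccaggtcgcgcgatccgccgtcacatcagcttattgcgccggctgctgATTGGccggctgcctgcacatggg

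CCAAT occurred within the 250 bases before the start in 21 of the 26 genes, or 80.8%, against 39.5% of 17491 protein-coding genes. Among the synthesis enzymes 14 of 15 held it, all but Acat2. Of the LXR and efflux genes 1 of 4 held it, namely Mylip. Hmgcs1 held 3 copies and Idi1 held 2, the nearer of which ends 10 bases before the start. The Sp1 motif GGGCGG occurred in 22 of 26 genes against 45.8% of all genes, and the E-box CACGTG in 6 of 26 against 7.61%. TCACNCCAC occurred in 1 of 26, against 1.2% of all genes. Only this string was searched for the sterol element, so promoters with another form of it are not counted. The STAT motif TTCNNNGAA and the IRF motif each occurred in 1 of 26, in both cases Ebp, against 7.65% and 3.48% of all genes. No motif overlapped the sterol element of Hmgcs1, and a match of letters is not a measured binding site.

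Of the 13 libraries, the one given IFNγ alone for 4 h stood lowest at more members than any other. Levels are given as normalised island reads, the reads of a gene's islands divided by the library's size factor, and they are compared here for 1 gene across libraries, not between genes of different island length. The IFNγ 4 h library held the lowest level of the 13 libraries for 13 of 31 members, 9 of them synthesis enzymes, against 10.4% of all genes. Read against the 4 untreated libraries together, the IFNγ 4 h library lay below all 4 for 16 of 31 members and above all 4 for 6, against 36.6% and 32.5% of all genes. The IFNγ libraries of the knockdown experiment lay below all 4 for 17 (scramble), 16 (shJunB) and 12 (shCEBPb) of 31, against 30.1%, 30.3% and 29.3%. The steadiest member was Nr1h2, which encodes LXRβ, between 624 and 757 reads in all 13 libraries. Abca1, Hmgcs1, Pmvk and Scap ranged much more widely, with Hmgcs1 at 190 to 2176 reads. Fdft1, squalene synthase, ranged from 665 to 13365 reads, and its island was joined in some libraries to that of its neighbour Ctsb. Its sum follows that join, so each count below that includes Fdft1 turns in part on whether the join was called. Inside its own window the log2 ratio to the untreated library was -1.46 with IL-4 and -1.64 with both at 2 h, and -2.45 with both at 4 h, against -3.45, -3.54 and -4.33 for the sums.

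**Figure D1:**
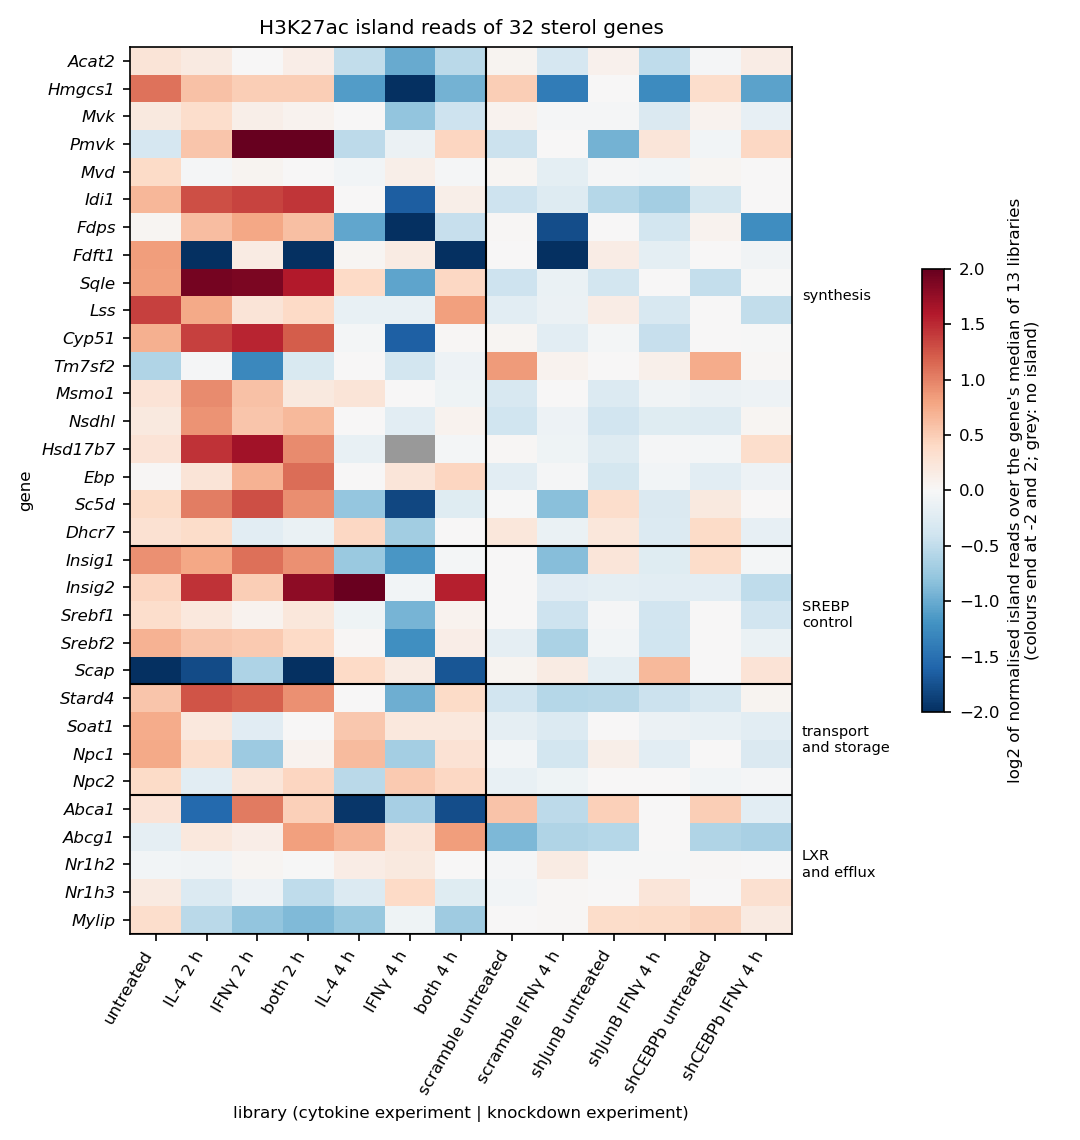
Normalised H3K27ac island reads of the 32 genes (rows, by role) in the 13 libraries (columns), as log2 of the level over that gene's median of 13 libraries, with colours ending at -2 and 2 and grey for no island. Most synthesis rows are red in the 2 h libraries and blue in the IFNγ 4 h library, and the efflux rows do not share that pattern.

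At 6 synthesis genes and Stard4, acetylation was above the untreated library of the cytokine experiment after 2 h of cytokine and below it after 4 h. Idi1, the isomerase of the C5 isoprenoid units, stood at 511 normalised reads untreated. At 2 h it reached 793 with IL-4, 825 with IFNγ and 869.7 with both, and at 4 h it was 323, 103 and 349.7. All 2 h values lay above the untreated library and all 4 h values below it. Cyp51, which demethylates lanosterol, stood at 568 untreated, at 896, 997 and 798.9 after 2 h of IL-4, IFNγ or both, and at 335, 111 and 352 after 4 h. Sc5d, the sterol C5 desaturase, went from 259 untreated to 402, 483 and 378 at 2 h and 116, 56.3 and 166.5 at 4 h. Within each time the order of the treatments differed between genes at 2 h, whereas at 4 h IFNγ alone was lowest for all 3 of these genes.

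The same order of times held in all 3 treatments for Fdps, Sqle, Nsdhl and Stard4. Fdps, which makes farnesyl diphosphate, stood at 862 reads untreated, at 1280.4, 1428 and 1270.1 after 2 h of IL-4, IFNγ or both, and at 408, 209 and 606 after 4 h. Sqle, squalene epoxidase, stood at 549 untreated, at 1170.2, 1149 and 938 at 2 h, and at 409.5, 149 and 415 at 4 h. Stard4, which carries cholesterol through the cytosol, stood at 461 untreated, at 753, 721 and 591 at 2 h and at 314, 159.8 and 410.6 at 4 h. For Sqle the islands of the 2 h IL-4 library reached into Washc5, and counting only reads inside the gene window gave 493 against 477 untreated.

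In all, 7 of 31 members lay above the untreated library at 2 h and below it at 4 h in all 3 treatments, 6 of them synthesis enzymes, against 0.498% of 11652 genes. Counting only reads inside the gene window, the number was 8 of 31 against 0.575%, with Insig1 added. Counting only the islands that touch a listed start, it was 5 of 24 against 0.637%, namely Hmgcs1, Idi1, Cyp51, Nsdhl and Sc5d. The 3 treatments share 1 untreated library, so these are not 3 separate observations of the starting level. Beside the untreated knockdown libraries, the part below untreated held for some genes only. Nsdhl at 4 h (199, 172 and 209 with IL-4, IFNγ and both) lay above untreated scramble, shJunB and shCEBPb cells (151, 154 and 167). Idi1, Sqle and Stard4 lay above all of these with IL-4 or both at 4 h and below them with IFNγ alone. Fdps and Sc5d lay below them in every treatment at 4 h. This pattern was not among the planned comparisons.

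**Figure D2:**
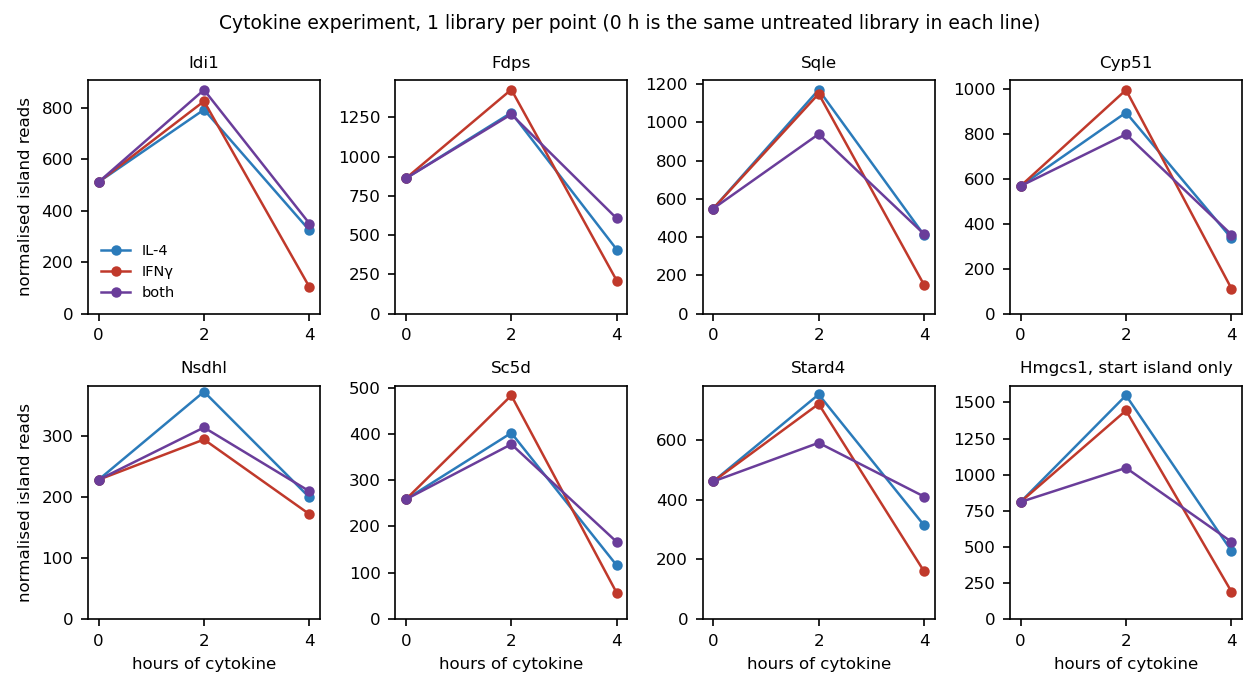
Normalised island reads (vertical axes, from 0) against hours of cytokine (0, 2 and 4 h) for 7 genes and for the start island of Hmgcs1, with 1 library per point and the same untreated library at 0 h in each line. Every panel peaks at 2 h, and IFNγ alone gives the lowest point at 4 h. The sum over all islands of Hmgcs1, not drawn, was highest in the untreated library.

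The step from 2 h to 4 h does not use the untreated library, and it was tested over the 3 treatments. No gene of 11812 passed edgeR's quasi-likelihood test at an adjusted p of 0.05, so 0% of genes and 0 of 31 members were called. At an unadjusted p under 0.05 there were 15 members, all lower at 4 h, and 1744 genes in all. The largest of these member changes were Pmvk at -2.16 ± 0.43 (log2, SE), Hmgcs1 at -2.02 ± 0.35, Sc5d at -1.99 ± 0.43 and Cyp51 at -1.89 ± 0.47, and the smallest adjusted p among members was 0.305. DESeq2, on the same counts and design, called 11 members lower and 0 higher, against 2.2% and 1.68% of genes. By direction alone 17 of 31 members were lower at 4 h than at 2 h in all 3 treatments, against 19.8% of genes.

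At 2 h few members passed a size rule, which asks for a 2-fold difference or more and for 50 or more normalised reads on the higher side and is no test. IL-4 gave 3 higher and 2 lower of 32, against 11.3% and 12.9% of genes. The highest ratios were those of Hsd17b7, Sqle, Insig2 and Pmvk (log2 1.18, 1.09, 1.01 and 0.88), and the lowest those of Fdft1, Abca1, Mylip and Lss (-3.45, -1.82, -0.90 and -0.61). IFNγ gave 4 higher and 3 lower, against 15.7% and 13.9%. Its highest ratios were those of Pmvk, Scap, Hsd17b7 and Sqle (log2 3.11, 1.58, 1.41 and 1.07), and its lowest those of Npc1, Mylip, Lss and Soat1 (-1.49, -1.15, -1.10 and -0.96). Both cytokines together gave 3 higher and 2 lower, against 15.7% and 14.2%, with Pmvk, Insig2, Ebp and Abcg1 highest (3.24, 1.36, 1.09 and 0.99) and Fdft1, Mylip, Lss and Soat1 lowest (-3.54, -1.24, -0.97 and -0.73).

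Pmvk, phosphomevalonate kinase, had a pattern of its own. It stood at 309 reads untreated and at 571 after 2 h of IL-4, but at 2667 after 2 h of IFNγ and 2922 after 2 h of both. At 4 h it had returned to 270.5, 362 and 524. In the 2 h IFNγ library an island of 18 kb (chr3:89465401-89483400) started within the gene and ran past its far end, beside the start island of 909.8 reads. The start island alone went from 309 reads untreated to 909.8 with IFNγ and 1027 with both.

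At 4 h of IFNγ in the cytokine experiment most synthesis and control genes lay below the untreated library. By the size rule 14 of 32 members were lower and 1 was higher, against 15% and 16.7% of 13453 genes. The median log2 ratio was -0.96 over the members and 0.01 over all genes. The 18 synthesis enzymes gave 9 lower and 0 higher with a median of -1.13. Hmgcs1 was 11.5-fold lower (10.0 to 13.1), Cyp51 5.12-fold (4.24 to 6.20), Idi1 4.97-fold (4.09 to 6.07) and Sc5d 4.6-fold (3.52 to 6.06). The other synthesis enzymes called lower were Fdps, Sqle, Lss, Acat2 and Hsd17b7, the last because no island was called there. The highest ratios belonged to Scap (log2 2.36), Abcg1 (0.42), Nr1h2 (0.25) and Tm7sf2 (0.23).

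Called length was read gene by gene for the members only. Called length at the members was shorter in the IFNγ 4 h library than in the untreated library for 29 of 32 genes, and summed to 335.6 kb against 452.8 kb. Divided by called length, reads per kb put 5 members lower and 0 higher in place of 14 and 1. In the knockdown experiment the summed lengths were 399.6 kb against 525.8 kb in scramble cells. They were 515.4 against 522.6 kb in shJunB cells and 472.2 against 551.8 kb in shCEBPb cells. Over the whole genome, called length was 201 Mb in the IFNγ 4 h library and 183 Mb in the untreated cytokine library. No share over all genes is given for the counts of members in this paragraph, so they are not shown to be particular to the members.

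With IL-4 alone at 4 h fewer synthesis genes were called lower, and Insig2 was called higher. The size rule called 7 members lower and 2 higher, against 13% and 9.73% of genes, with a median log2 ratio of -0.44 over the members and 0.00 over all genes. The lowest ratios were those of Abca1 (-2.22), Hmgcs1 (-2.21), Insig1 (-1.66) and Lss (-1.51), and the highest those of Scap (2.60), Insig2 (1.55), Abcg1 (0.85) and Tm7sf2 (0.60). Both cytokines at 4 h gave 4 lower and 2 higher, against 12.5% and 14.9%. There the lowest were Fdft1 (-4.33), Abca1 (-2.04), Hmgcs1 (-2.02) and Mylip (-1.07), and the highest Insig2 (1.13), Abcg1 (1.00), Pmvk (0.76) and Tm7sf2 (0.50).

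Cells given IL-4 together with IFNγ carried more acetylation at several synthesis genes than cells given IFNγ alone for 4 h. The size rule put 11 members higher and 3 lower with both than with IFNγ, against 8.16% and 7.87% of 13399 genes, and the median log2 ratio was 0.56 over members and 0.01 over all genes. Idi1 was 3.40-fold higher (2.81 to 4.14) and Hsd17b7 had 141 reads against no island, a log2 ratio of 1.72 with the fill-in value. Cyp51 was 3.17-fold (2.64 to 3.83), Insig2 3.04-fold (2.86 to 3.25) and Sc5d 2.96-fold (2.28 to 3.88). The lowest ratios were those of Fdft1 (log2 -3.65), Scap (-1.87), Abca1 (-1.10) and Nr1h3 (-0.64). Against IL-4 alone at 4 h, both cytokines left 0 members higher and 2 lower, Fdft1 and Scap, against 13.4% and 6.33% of genes. At 2 h, adding IL-4 to IFNγ gave 1 higher (Insig2) and 2 lower (Fdft1 and Scap), against 4.55% and 5.48%, and adding IFNγ to IL-4 gave 2 higher (Pmvk and Abca1) and 0 lower, against 12.6% and 9.27%.

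Over both times together, edgeR called 0 of 31 members and 0% of 11812 genes for IL-4 added to IFNγ. The smallest adjusted p among members was 0.214, for Npc1, with a log2 change of 0.89 ± 0.17 (SE). DESeq2 called 2 higher (Insig2 and Npc1) and 2 lower (Fdft1 and Scap), against 3.15% and 1.93% of genes.

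IFNγ at 4 h against untreated cells was the comparison with the most libraries, 4 pairs that differ in background and are not replicates of 1 condition. In edgeR's test with background as a block, 4 of 31 members were lower and 0 higher, against 17.8% and 15.3% of 11846 genes. They were Hmgcs1 (log2 change -1.99 ± 0.43 SE, adjusted p = 0.0267), Fdps (-1.38 ± 0.31, adjusted p = 0.0287), Dhcr7 (-0.60 ± 0.13, adjusted p = 0.0274) and Abca1 (-0.80 ± 0.14, adjusted p = 0.0164). Dhcr7, the last enzyme of the pathway, stood at 758.5 reads untreated and 381 with IFNγ in the cytokine experiment. In the same order it stood at 723 and 563 in scramble, 721 and 509 in shJunB and 802 and 553 in shCEBPb cells. Summed over islands, Fdps stood at 862 and 209, 856 and 245, 838 and 650.0, and 878 and 354. Counting only reads inside the gene window, Fdps stood higher in shCEBPb cells given IFNγ than in untreated shJunB cells. Fdps was still lower with IFNγ in all 4 pairs there, with a log2 change of -1.02 ± 0.28 (SE, adjusted p = 0.0336 in edgeR's test). Over the alternatives run, edgeR and DESeq2 gave adjusted p from 5.92e-07 to 0.356 for Hmgcs1, 1.16e-05 to 0.124 for Fdps, 0.000173 to 0.0898 for Dhcr7 and 7.77e-08 to 0.0710 for Abca1. Leaving out the scramble pair or the shCEBPb pair left 0 members lower, leaving out the shJunB pair left 2, and leaving out the cytokine pair gave 5. No share over all genes is given for these fits with a pair left out. DESeq2 called 8 lower and 3 higher, against 26.6% and 23.7% of genes. With either tool, members were thus called no more often than all genes fitted, in either direction.

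The share of members lower in all 4 pairs was 15 of 31, against 31.5% of genes, and 5 were higher in all 4, against 28.4%. The 15 were Hmgcs1, Mvk, Mvd, Fdps, Fdft1, Cyp51, Sc5d and Dhcr7 among the synthesis genes, Insig1, Insig2, Srebf1 and Srebf2 among the control genes, and Soat1, Npc1 and Abca1. Higher in all 4 were Pmvk, Ebp, Scap, Npc2 and Nr1h3. Sqle, Msmo1 and Nsdhl were lower with IFNγ in the cytokine experiment and higher in all 3 knockdown pairs, against 3.36% of genes. Counting reads inside the gene window this held for 1 of 31 (Sqle), against 3.91%, and on listed starts for 1 of 24 (Nsdhl), against 3.43%, shares near the background.

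The size of the IFNγ change differed between the experiments for several members. Sqle went from 549 to 149 reads in the cytokine experiment, but stood at 233 and 283 in scramble cells, 242 and 311 in shJunB cells, and 224 and 308 in shCEBPb cells. Idi1 went from 511 to 103 in the cytokine experiment and stood at 242 and 272, 218 and 202, and 253 and 326 in the 3 knockdown backgrounds. Untreated cells of the knockdown experiment thus lay below the untreated cytokine library for both genes, and all their IFNγ libraries lay above the IFNγ 4 h library. A test of the difference, the knockdown pairs minus the cytokine pair, was chosen after these values were seen and rests on 1 pair on the cytokine side.

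In that test edgeR called 0 of 31 members and 0% of genes. The smallest adjusted p was that of Sqle (log2 difference 2.25 ± 0.16 SE, adjusted p = 0.0521), and at an unadjusted p under 0.05 there were 14 members higher and 1 lower, among 2634 genes. Counting only islands on a listed start, edgeR called Idi1 (2.46 ± 0.24, adjusted p = 0.0480), Srebf2 (2.54 ± 0.25, adjusted p = 0.0480), Hmgcs1 (2.05 ± 0.21, adjusted p = 0.0481) and Cyp51 (2.13 ± 0.22, adjusted p = 0.0481) higher, against 0.583% of genes, and 0 lower, against 0.753%. Counting only reads inside the gene window, Idi1, Sqle, Srebf2, Npc1 and Cyp51 were higher, against 1.82% of genes, and Scap was lower, against 2.13%. DESeq2 called 10 higher and 1 lower, against 3.52% and 4.77%. The experiments also differ in called length and in the share of reads in islands, as given above, and the part of either in this difference was not tested.

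**Figure D3:**
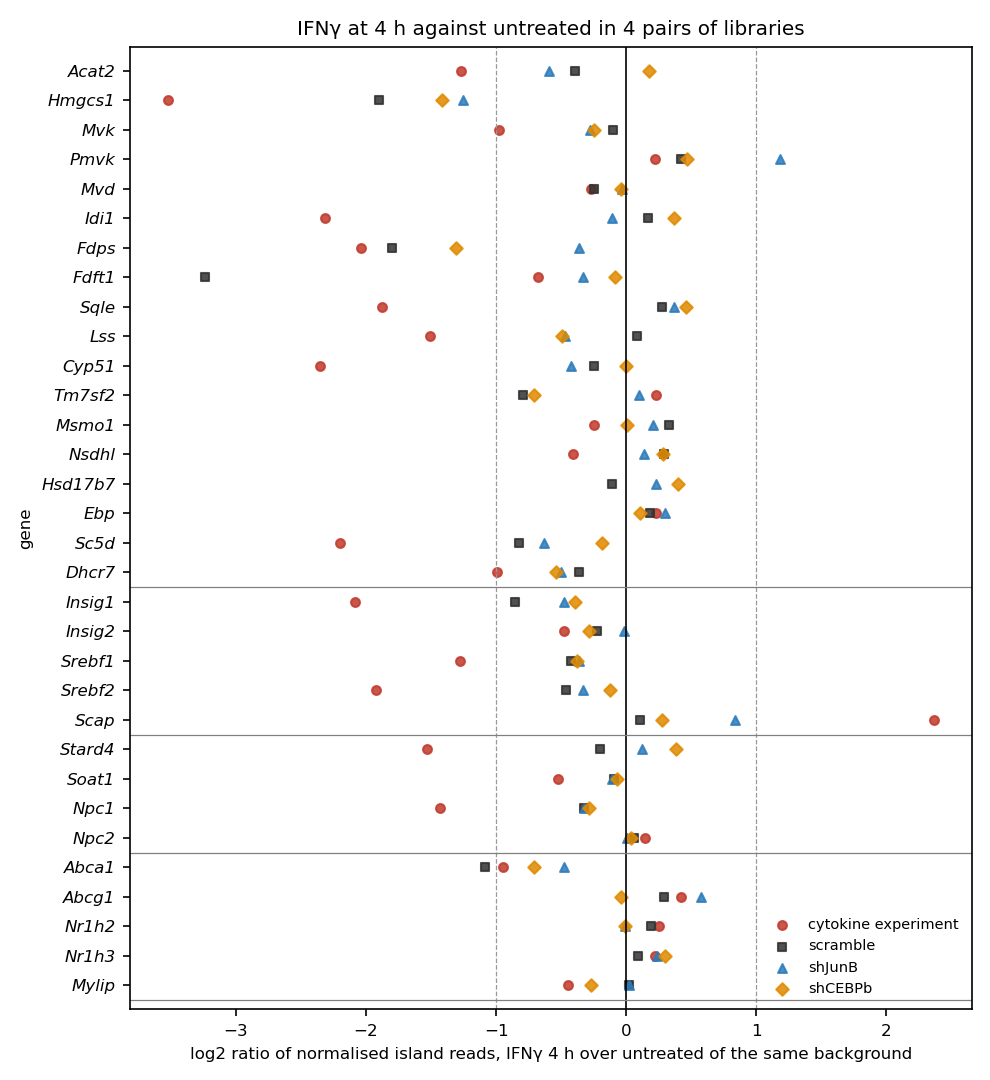
Log2 ratio of normalised island reads (horizontal axis), IFNγ 4 h over untreated cells of the same background, for each gene (rows, by role), with 1 point for each of 4 pairs of libraries and dashed lines at a 2-fold difference. The cytokine experiment lies farthest left for most synthesis genes, and Hmgcs1 is left of the dashed line in all 4 pairs.

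The sum over islands at Hmgcs1 joins separate places. In the untreated cytokine library it carried 2 islands, one over the start (chr13:119687001-119696600, 9.6 kb, 811 normalised reads) and one that began in the last part of the gene and ran past its end (chr13:119703601-119717800, 14.2 kb, 1365 reads). The merged region also touches the neighbouring gene Nim1k. The downstream island was called in all 4 untreated libraries, at 985, 584 and 866 reads in scramble, shJunB and shCEBPb cells. It was called in 0 of 4 libraries given IFNγ alone for 4 h. Among the other treated libraries it was called, at 403 reads, in the 2 h library with both cytokines.

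The start island alone gave another account of IFNγ in the knockdown experiment. It held 465 reads untreated and 388 with IFNγ in scramble cells, 443 and 431 in shJunB cells, and 439.7 and 490.0 in shCEBPb cells. In the cytokine experiment it went from 811 to 189.8 at 4 h of IFNγ, after 1549 with IL-4, 1444 with IFNγ and 1047 with both at 2 h. IL-4 for 4 h gave 472 and both cytokines 535. Summed over all its islands, Hmgcs1 instead fell at 2 h, from 2176 reads untreated to 1549 with IL-4, 1444 with IFNγ and 1450 with both. Inside the gene window it fell from 1156.5 to 630, 564 and 747 in the same order. At 2 h the start island was also longer than untreated, at 13.4 kb with IL-4 and 11.4 kb with IFNγ. Over the 4 pairs the log2 change of the start island was -0.53, with an adjusted p of 0.356 in edgeR's test. The call for the summed islands of Hmgcs1 thus rested in the 3 knockdown pairs on the downstream island, and reads per kb of all its islands were higher with IFNγ in these pairs (log2 0.37, 0.68 and 0.74). On listed starts alone, 1 of 24 members was lower over the 4 pairs (Abca1, -1.07 ± 0.27 SE, adjusted p = 0.0461) and 0 higher, against 13.3% and 11.7% of 8233 genes, and Dhcr7 missed the threshold with an adjusted p of 0.0534.

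**Figure D4:**
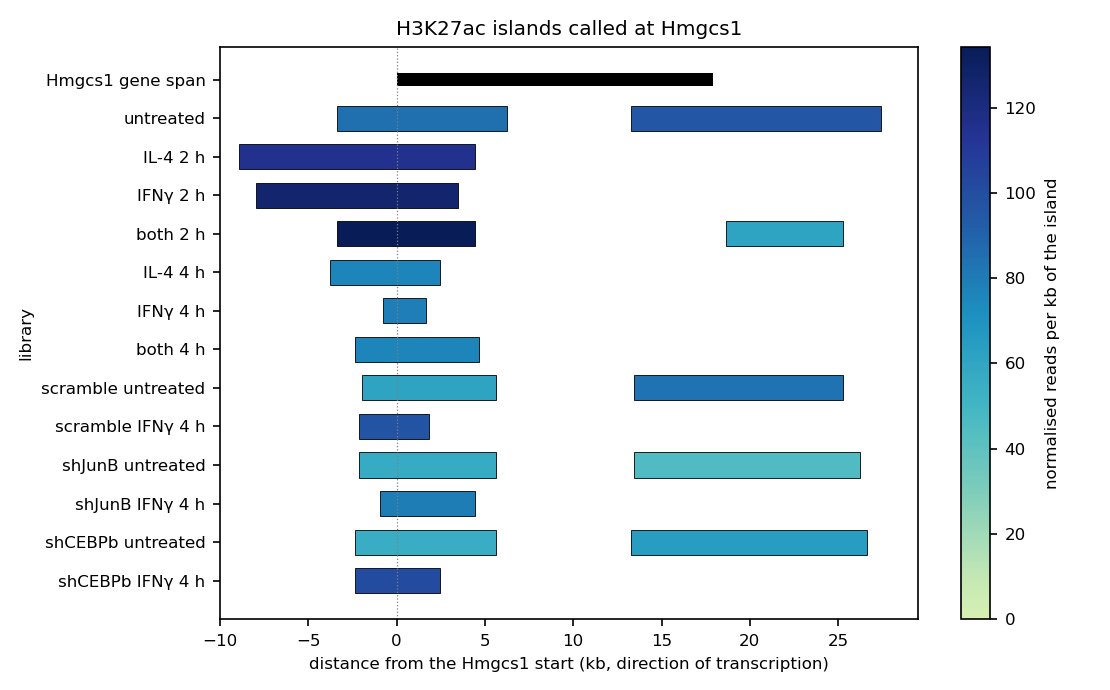
Islands called at Hmgcs1 in each library (rows) against distance from its start in kb (horizontal axis), coloured by normalised reads per kb, with the gene span in black. The island beyond 13 kb is present in the 4 untreated libraries and the 2 h library with both cytokines, and the start island of the IFNγ 4 h library is 2.4 kb long.

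Among the genes that control the pathway, Insig1 was lower at 4 h than at 2 h in all 3 treatments, and Insig2 was highest in the libraries with IL-4. Insig1, itself a target of SREBP, stood at 1500.1 reads untreated, at 1363, 1703 and 1500.3 after 2 h of IL-4, IFNγ or both, and at 473.5, 353 and 771.0 after 4 h. In the knockdown experiment it went with IFNγ from 794 to 440.0 in scramble, from 937.5 to 674 in shJunB and from 1021 to 776 in shCEBPb cells. It was lower in all 4 IFNγ pairs, but missed the test (log2 change -0.94 ± 0.32 SE, adjusted p = 0.0769). A median of 45.1% of its reads lay inside the gene window, where edgeR gave a log2 change of -0.44 with an adjusted p of 0.199.

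Insig2, the second inhibitor of SCAP, stood at 1284 reads untreated and 1336 and 921 after 2 h and 4 h of IFNγ. With IL-4 it reached 2586 at 2 h and 3749.7 at 4 h, and with both cytokines 3288 and 2804. All 4 libraries given IL-4 lay above the other 9, which ranged from 674 to 1336. In the 4 h IL-4 library 1 island of 25.4 kb (chr1:121310001-121335400, 3668 reads) covered most of the gene. The untreated library carried 2 separate islands in the same stretch, of 5.0 and 7.2 kb. Summed over islands, Insig2 was 2.92-fold above untreated at 4 h of IL-4 (2.73 to 3.13) and 2.18-fold with both cytokines (2.04 to 2.34). In the edgeR fit for IL-4 added to IFNγ, the log2 change was 1.44 ± 0.33 (SE) with an adjusted p of 0.247.

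Srebf1 and Srebf2, which encode the SREBP precursors, were lowest in the IFNγ 4 h library. Srebf2 stood at 2814.5 reads untreated, at 2548.5, 2495 and 2285 after 2 h of IL-4, IFNγ or both, and at 1763, 741 and 1906 after 4 h. Srebf1 stood at 1676 untreated, between 1377 and 1527 at 2 h, and at 1236, 690.1 and 1376 at 4 h. Both were lower in all 4 IFNγ pairs, with log2 changes of -0.70 ± 0.34 (adjusted p = 0.165) for Srebf2 and -0.61 ± 0.19 (adjusted p = 0.0672) for Srebf1, neither past edgeR's threshold. Scap, the escort protein, had the fewest reads of the control genes, 54.6 in the untreated library and at most 394 in any. At 4 h it stood at 281 with IFNγ and 331 with IL-4, most of it in an intragenic island near chr9:110348001-110352800 that was not called in the untreated library, and the island on its start did not rise by the size rule.

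Abca1 and Abcg1 both lay above the untreated library after 2 h of IFNγ or both cytokines, and on opposite sides of it with IL-4 at either time and in all treatments at 4 h. The difference between the 2 genes was not tested. Abca1 stood at 4952 reads untreated, at 1401 after 2 h and 1062 after 4 h of IL-4, at 8398 after 2 h and 2575 after 4 h of IFNγ, and at 5669 and 1204 with both. In the knockdown experiment it went with IFNγ from 6055.5 to 2858 in scramble and from 5693 to 4093 in shJunB cells. In shCEBPb cells it went from 5762 to 3522.5. Abcg1 stood at 3085 untreated and higher in each treated cytokine library, at 4015.5 and 5557 with IL-4, 3829 and 4134.5 with IFNγ, and 6126 and 6189 with both at 2 h and 4 h. Its untreated levels in the knockdown experiment were lower, between 1874 and 2341, and with IFNγ it stood at 2290.2, 3479 and 2229 in scramble, shJunB and shCEBPb cells. Over the 4 pairs its log2 change was 0.31 ± 0.14 (SE) with an adjusted p of 0.144 in edgeR's test, and 0.41 with an adjusted p of 0.0439 for reads inside the gene window.

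The untreated library carried 5 islands at Abca1. The largest lay inside the gene, at chr4:53114001-53128800 with 3174 reads, and the one on the start held 956. With IL-4 at 4 h the inner island held 870.0 reads and the start 135, and with IFNγ at 2 h the inner island held 6059 and the start 2115. Both were lower with IL-4 and higher with IFNγ than untreated, but the start island of the IFNγ library was 25.4 kb long, longer than the untreated one, and covered a stretch where the untreated library had a separate island.

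**Figure D5:**
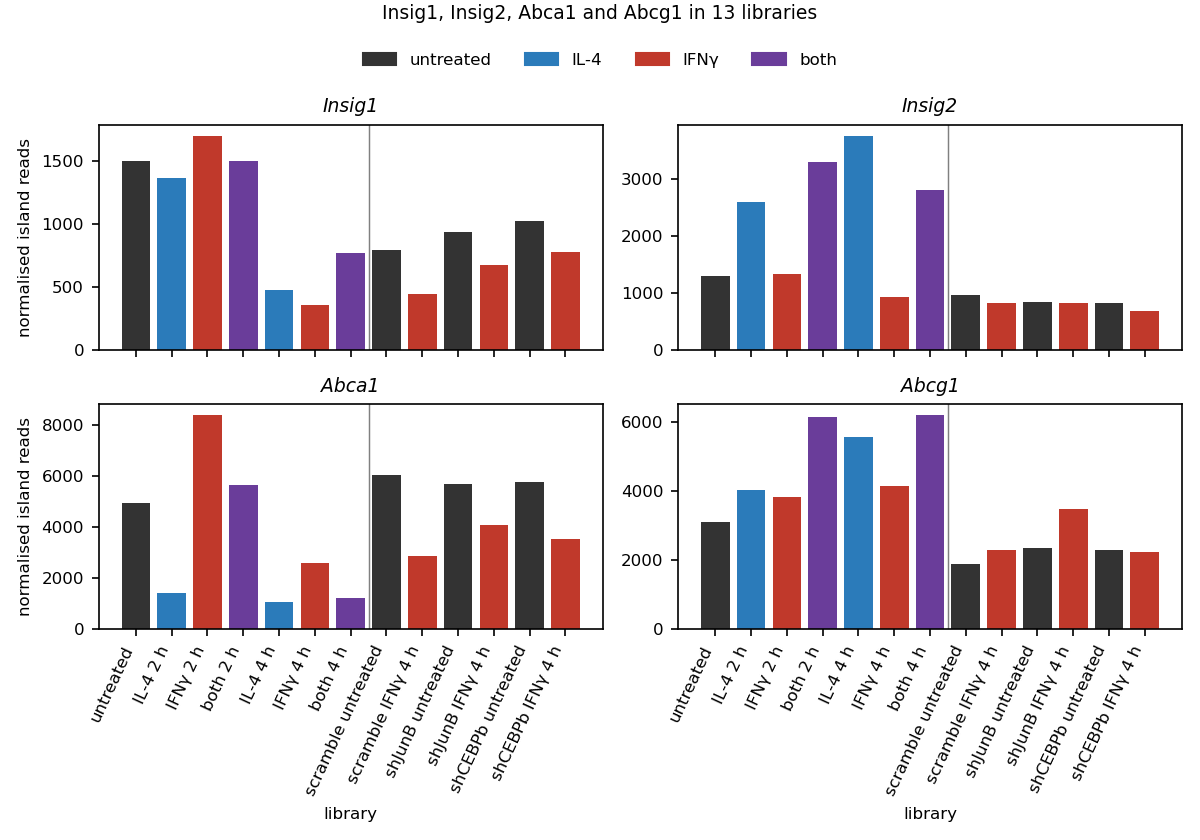
Normalised island reads (vertical axes, from 0) of Insig1, Insig2, Abca1 and Abcg1 in the 13 libraries, coloured by treatment, with the cytokine experiment left of the grey line. Insig2 is high in the 4 libraries with IL-4, and Abca1 is low in all of those except the 2 h library with both cytokines.

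Of the LXR receptor genes, Nr1h2 spanned 1.21-fold and Nr1h3 1.86-fold over the 13 libraries. Nr1h3, which encodes LXRα, stood at 5421.5 reads untreated and 6315 with IFNγ at 4 h, against 3968 with IL-4 and 4057 with both. Its log2 change over the 4 IFNγ pairs was 0.21 ± 0.09 (SE), higher in 4 of 4 pairs, with an adjusted p of 0.138 in edgeR's test and 0.0140 in DESeq2's. For Nr1h2 the same test gave 0.10 ± 0.09 with an adjusted p of 0.410. Mylip, the ligase that sends lipoprotein receptors to degradation, stood at 1606 untreated and lower in all 6 treated cytokine libraries, between 681 and 1175, but at 1252 to 1712 in all 6 knockdown libraries.

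Among the transport genes, Npc1 was called lower with IFNγ at 2 h and 4 h in the cytokine experiment and Npc2 was not. NPC1 and NPC2 together pass cholesterol out of the lysosome. Npc1 stood at 5838 reads untreated, at 4417.5 and 5359 after 2 h and 4 h of IL-4, at 2079 and 2166 with IFNγ, and at 3639 and 4241 with both. Its 2 IFNγ levels were below all 11 other libraries. Over the 4 pairs the log2 change was -0.59 ± 0.24 (SE), with an adjusted p of 0.117 in edgeR's test. Npc2 stood at 7772 untreated and at 7088 and 8597 with IFNγ, and its lowest level was 4099.9 with IL-4 at 4 h. Soat1, which esterifies cholesterol for storage, was highest in the untreated cytokine library at 6300.2 reads and lay between 3121 and 5487 in the others.

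The remaining enzymes did not pass edgeR's test over the 4 IFNγ pairs, for which Hsd17b7 was left out because it lacks an island in 1 library. Acat2, Mvk and Ebp lay within 75.0 to 181, 157.5 to 348 and 229 to 634.6 reads over the 13 libraries. Lss, lanosterol synthase, stood at 749 untreated and between 262.5 and 516 in the treated cytokine libraries. Hsd17b7 went from 175 untreated to 395, 464 and 281 at 2 h, and to 132, no island and 141 at 4 h. Msmo1 and Nsdhl peaked with IL-4 at 2 h, at 1886 and 372 reads. Mvd and Tm7sf2 share their islands with neighbouring genes, and 41.2% and 38.1% of their reads (medians over libraries) lay inside their own windows.

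Neither knockdown gave a member past the test. For shJunB and for shCEBPb against scramble over both states, edgeR called 0 of the members in each, against 0% of 12447 genes for shJunB and 0.00803% higher and 0% lower for shCEBPb, and DESeq2 called 0 members in either. The smallest unadjusted p among members was that of Insig1 in shCEBPb cells (log2 change 0.58 ± 0.15 SE, adjusted p = 0.843 in edgeR's test). By the size rule untreated shJunB and shCEBPb cells each gave 0 members higher and 0 lower than scramble, against 4.03% and 3.92% and against 3.5% and 2.36% of genes. With IFNγ, shJunB gave 2 higher (Fdps and Fdft1) and 0 lower, against 4.79% and 2.91%. Fdps carried 2 islands, 9.8 kb in all, in the shJunB IFNγ library and 1 of 4.8 kb in the scramble one. Inside its gene window these libraries held 169 and 152 reads. With IFNγ, shCEBPb gave 1 higher (Fdft1) and 0 lower, against 3.95% and 1.83%. The scramble IFNγ library is one in which the Fdft1 and Ctsb islands were not joined, so the Fdft1 calls are between joined and separate islands.

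Within the knockdown experiment the size rule called few members for IFNγ. In scramble cells 4 were lower (Fdft1, Hmgcs1, Fdps and Abca1) and 0 higher, against 10.6% and 8.6% of genes. In shJunB cells 1 was lower (Hmgcs1) and 1 higher (Pmvk), against 9.73% and 10.3%, and in shCEBPb cells 2 were lower (Hmgcs1 and Fdps) and 0 higher, against 9.63% and 9.34%. The untreated scramble library lay below the untreated cytokine library for 28 of 32 members, a count given without its share over all genes. The median log2 ratio was -0.41 over the members against 0.12 over all genes. There 3 members were lower (Lss, Sqle and Idi1) and 2 higher (Tm7sf2 and Scap), against 5.13% and 13.6%. shRNA, culture and library cannot be told apart in that comparison.

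Other genes of the pathway were read from lists around the members, in the edgeR test of IFNγ at 4 h over 4 backgrounds. Of 10 fatty acid synthesis genes fitted, 4 were lower and 0 higher, with a median log2 change of -0.71. Over all genes fitted, 17.8% were lower and 15.3% higher, with a median of -0.02. The lower ones were Elovl5 (-1.44), Elovl6 (-1.06) and Mid1ip1 (-1.03), which lengthen fatty acids or act on their synthesis, and Acaca (-0.57), acetyl-CoA carboxylase. Of 12 other sterol genes 5 were lower and 1 higher, among them Mbtps2 (-0.98), the site-2 protease that releases SREBP, and Rnf145 (1.00), a ubiquitin ligase. Of 10 LXR partners and targets 2 were higher and 2 lower, and of 12 lysosomal and vesicular genes 4 were lower and 0 higher, among them Lipa (-0.67), the lysosomal acid lipase.

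Ch25h, which makes 25-hydroxycholesterol, had the largest change among these lists. It stood at 856 reads untreated and 12223 with IFNγ at 4 h, against 2122 with both cytokines and 1324 with IL-4. In the knockdown experiment it went with IFNγ from 509 to 2630.4, from 965 to 8644 and from 800.2 to 2197 in scramble, shJunB and shCEBPb cells. Its log2 change over the 4 pairs was 2.71 ± 0.44 (SE), with an adjusted p of 0.0145 in edgeR's test. Counting only reads inside the gene window gave 1.16 ± 0.16 with an adjusted p of 0.00396. 25-hydroxycholesterol is known as a sterol that holds SREBP processing back and activates LXR, and no sterol was measured in these data.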

How the data were processed

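H3K27ac ChIP-seq was deposited as 13 lists of islands, 1 per library and called in each library separately. Each list holds the ChIP and control read counts of an island, which the authors deposited without normalization. It also holds a p-value and an FDR, deposited by the authors from their island caller, and a fold ratio of ChIP over control that the authors scaled by library totals, as the deposited values show. The submitters' processing notes name Bowtie2 2.2.6, SICER 1.1 and mm10 (GRCm38). In the files, island edges lie on a 200 bp grid, the smallest gap between islands is 800 bp, the highest FDR is 0.00999, the smallest fold is 1.11 and the smallest island holds 18 reads. Control reads were equal at 29680 of 29680 islands shared between libraries, so the control adds no replicate. A stretch below the caller's threshold is absent from the lists, so a missing island is not a measured 0.

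The members and the other gene lists were chosen with earlier results of these data known. Reads of islands touching a gene span plus 1 kb on either side (RefSeq, GRCm38.p6) were summed and divided by a median-of-ratios size factor over 14347 regions called in all 13 libraries. Ratios used the 5th percentile of a library's reads per island where no island was called. Single pairs of libraries were read by size only (2-fold, 50 normalised reads). Tests over several pairs used edgeR 4.0.16 (quasi-likelihood, Benjamini-Hochberg over all protein-coding genes called in every library of the fit, threshold 0.05) in R 4.3.3, with DESeq2 1.42.0 as an alternative. Tables were made with Python 3.11.15, numpy 2.4.6, pandas 2.3.3 and scipy 1.17.1. The counting and the tests were tested on simulated data. Text names every member past a test, the 4 highest and 4 lowest ratios of a comparison, and up to 4 genes of another list. Alternatives were reads inside the window, merged regions, reads per kb, library totals, control subtraction, a 10 kb window, an FDR of 0.0001, a 1.5-fold size rule, leaving out each pair, and an extra IFNγ pair (both cytokines against IL-4, 4 h). The test between experiments and the use of islands on a listed start alone were chosen after seeing the data. The pattern of above untreated at 2 h and below it at 4 h was not among the planned comparisons. Motifs were searched in the 250 bases before a listed start.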

Additional observations from a re-analysis of the deposited data

Results flagged for a closer look

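Sqle went in opposite directions with IFNγ at 4 h in the 2 experiments. The log2 ratio to untreated cells was -1.878 in the cytokine experiment and 0.28, 0.37 and 0.46 in scramble, shJunB and shCEBPb cells. Inside the gene window, lower in the cytokine experiment and higher in all 3 knockdown pairs held for 1 of 31 members (Sqle), against 3.91% of genes. In edgeR's test of the knockdown pairs against the cytokine pair, the difference missed the threshold for summed islands. It passed when only reads inside the gene window were counted. That test was chosen after these values were seen, so it adds no support to the flag. The cytokine side of that test is 1 pair of libraries.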

How the results depend on the processing

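For IFNγ at 4 h over 4 backgrounds, members lower numbered 8 by DESeq2, 1 on islands at a start, 1 with a pair added (both cytokines against IL-4, 4 h) and 0 to 5 leaving out 1 pair, against 4; members higher numbered 3 by DESeq2, 1 with library totals, 2 inside the window, 1 with the added pair and 0 to 1 leaving out 1 pair, against 0. Leaving out 1 pair moved the log2 change of Sqle, -0.17 over all 4 pairs, between -0.39 and 0.37. DESeq2 called 11 members lower for 4 h against 2 h, 2 lower and 2 higher for IL-4 added to IFNγ, and 1 lower and 10 higher between experiments, each against 0. Between experiments, reads inside the window gave 1 lower and 5 higher, and islands at a start 4 higher. No share over all genes is given for library totals, the added pair or leaving out 1 pair.

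With a 1.5-fold size rule, members lower and higher than untreated numbered 5 and 10 for IL-4 at 2 h, 7 and 11 for IFNγ at 2 h, 7 and 7 for both at 2 h, and 13 and 4 for IL-4 at 4 h. It gave 9 lower for both at 4 h, 7 lower for IFNγ in scramble cells, 3 lower and 2 higher in shJunB cells and 4 lower in shCEBPb cells. Inside the window there was 1 higher for IL-4 at 2 h, 0 lower in shJunB cells and 1 lower in shCEBPb cells. Merged regions left 1 lower for both at 2 h, 2 for both at 4 h, 2 in scramble and 1 in shCEBPb cells. Library totals gave 4 lower for IL-4 at 4 h. Control subtraction gave 5 higher for IL-4 and 5 for both at 2 h, 0 lower in shJunB cells and 1 higher in shCEBPb cells. A 10 kb window gave 1 lower for both at 2 h, 1 higher for both at 4 h, 2 lower and 1 higher in scramble cells and 1 lower in shCEBPb cells. An FDR of 0.0001 gave 2 higher in shJunB cells. Islands at a start gave 1 lower for IL-4 at 2 h, 5 higher for both at 2 h, 2 higher for IFNγ at 4 h, 2 lower for both at 4 h, 2 lower in scramble cells and 0 higher in shJunB cells. No share over all genes is given under the settings of this paragraph and the next. Their counts show how the calls move with the processing, not whether members exceed all genes.

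Reads per kb gave 1 higher for IL-4 at 2 h, 0 higher for IFNγ at 2 h, 1 lower for both at 2 h, 1 lower and 0 higher for IL-4 at 4 h, 5 lower and 0 higher for IFNγ at 4 h, 2 lower and 0 higher for both at 4 h, 1 lower in scramble cells, 0 and 0 in shJunB cells and 0 lower in shCEBPb cells. They reversed the log2 ratio of Hmgcs1 with IFNγ to 0.37, 0.68 and 0.74 in scramble, shJunB and shCEBPb cells, of Fdps to 0.021 in shCEBPb cells, and of Tm7sf2 to -0.16 in untreated scramble against untreated cells. They reversed Scap to 0.92 (both against IFNγ, 2 h) and 0.047 (both against IL-4, 4 h), Pmvk to -0.29 (both against IL-4, 2 h), and Hmgcs1 to -0.049 and Insig1 to -0.35 (both against IFNγ, 4 h). Merged regions and the 10 kb window reversed Fdft1 to 0.10 and 0.10 (both against IL-4, 4 h) and Fdps to -0.24 and -0.24 (shJunB against scramble, IFNγ). Islands at a start reversed Scap to -0.35 (IFNγ 4 h against untreated), 0.85 and 0.071 (both against IFNγ and against IL-4, 4 h), and Hmgcs1 to 0.16 with IFNγ in shCEBPb cells. The cause of these differences was not tested.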
